A study of Oryza sativa with 8 samples.

Results

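The circadian clock genes of rice were followed here through 9 loci: LHY, the pseudo-response regulators PRR1, PRR37, PRR59, PRR73 and PRR95, GI, PCL1 and ELF3. They were chosen by name, as the spots of a custom expression array whose probe name without its suffix is the identifier of one of these loci. Of the 9 loci, 8 had a spot and all 8 passed the filter on dim probes, out of 52795 loci on the array and 45411 that were tested. LHY (LOC_Os08g06110), the morning MYB factor of the clock, was not analysed here. The study compared Nipponbare, a japonica line, with Pokkali, an indica line, as whole 14-day seedlings grown in a greenhouse under natural light. In each line, seedlings collected at 0 h and seedlings collected after 8 h in 250 mM NaCl were measured, with 2 arrays per group and 8 in all. No group of unsalted seedlings at 8 h was analysed here, and the labels give no clock time of collection. In all that follows, 8 h of salt and the passage of 8 h therefore cannot be told apart.

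The plant clock is a loop of transcription factors that repress each other in turn through the day. In Arabidopsis, LHY and its partner act around dawn, the PRR9, PRR7 and PRR5 proteins act in sequence from morning to evening and repress LHY, and TOC1 (the counterpart of rice PRR1) acts in the evening, as does a complex of ELF3, ELF4 and LUX (the counterpart of rice PCL1). GI is an afternoon and evening protein that binds blue-light receptors of the FKF1 and ZTL family and, in rice as in Arabidopsis, connects the clock to flowering. Because the transcripts of most of these genes cycle daily, their levels mark the hour at which a seedling was collected.

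The value used was the processed signal of each spot, expressed as a multiple of the 75th percentile of its array and called relative signal below. The 75th percentile lay between 674 and 950 intensity units, and between 81.0 and 85.5% of spots were well above background. All changes are log2 differences of relative signal from 1 limma model of the 4 groups, with p-values adjusted over all 45411 loci and a threshold of 0.05. Without scaling between arrays, every locus moved by -0.22 in the 8 h against 0 h comparison of Nipponbare and by -0.15 in that of Pokkali, and the share of calls that were higher at 8 h fell from 53.3% to 33.2% and from 56.0% to 42.5%. At 0 h, the same step moved Pokkali against Nipponbare by -0.22 and its share of higher calls from 40.0% to 24.0%; at 8 h it moved it by -0.15, and the share from 47.9% to 35.0%. All 8 arrays lay on 1 slide, with the lines in different rows and the times in different columns, so array position and group cannot be told apart. Levels are of bulk tissue, in which fewer cells of a type and less RNA per cell cannot be told apart.

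The tissue and the treatment were checked against marker genes. All 4 leaf markers were well above background on every array, and their summed relative signal was 131 to 137 in Nipponbare at 0 h and 22.3 to 31.4 at 8 h, and 124 to 151 and 30.7 to 45.5 in Pokkali. For the 4 root markers the sum went from between 10.1 and 20.4 to between 0.944 and 0.978 in Nipponbare. In Pokkali it went from between 9.13 and 14.4 to between 1.47 and 1.61. At least 3 of the 4 were well above background on every array. Most of the 0 h sum was RCC3, at 8.54 and 19.3 in Nipponbare and 7.89 and 13.2 in Pokkali. LSI1 and NRT2.2 were also lower at 8 h in both lines, though NRT2.2 was not well above background in Pokkali. LSI2 did not pass, with log2 changes of -0.12 in Nipponbare (adjusted p = 0.765) and -0.06 in Pokkali (adjusted p = 0.879). The 3 salt-induced genes RAB16C, LEA3 and SALT together stood at 0.693 to 1.80 in Nipponbare at 0 h and 28.7 to 62.5 at 8 h, and at 1.07 to 1.83 and 95.4 to 128 in Pokkali. The summed leaf and root marker signal thus moved down with every change at 8 h that is given below. Its part in those changes was not tested.

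Of the 8 clock loci, 5 rose in Nipponbare between 0 h and 8 h (PRR1, PRR37, PRR59, PRR95 and PCL1) and none fell, where 14% of all loci tested rose and 12.3% fell. In Pokkali 4 rose (PRR1, PRR59, PRR95 and PCL1) and none fell, where 15.2% of all loci rose and 12% fell; PRR37 alone had a negative change with an unadjusted p under 0.05. The median log2 change over the 8 loci was 1.09 in Nipponbare and 0.63 in Pokkali, against 0.05 and 0.08 over all loci. The arrays of both times did not overlap for 7 of the 8 loci in each line. How often this held over all loci was not counted, so the number is not read as a feature of the clock loci.

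PRR1 (LOC_Os02g40510), the rice TOC1, had a relative signal of 0.219 and 0.261 on the 0 h arrays of Nipponbare and of 1.98 and 1.90 on its 8 h arrays. In Pokkali it was 0.443 and 0.405 at 0 h and 2.08 and 2.46 at 8 h. Every 8 h array was above every 0 h array, and the repeats of each group lay close together beside the gap between the times. The rise was 8.11-fold in Nipponbare (log2 change 3.02, SE 0.17, adjusted p = 0.000928) and 5.34-fold in Pokkali (log2 change 2.42, SE 0.17, adjusted p = 0.0014). Both calls held without any 1 of the 8 arrays, with an adjusted p of at most 0.00892 in Nipponbare and 0.0159 in Pokkali.

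PRR95 (LOC_Os09g36220) and PRR59 (LOC_Os11g05930), which group with Arabidopsis PRR5 and PRR9, rose as well. PRR95 stood at 8.30 and 5.19 in Nipponbare at 0 h and at 29.7 and 31.9 at 8 h, and at 12.7 and 7.61 in Pokkali at 0 h and 28.1 and 35.0 at 8 h. The 8 h arrays were again all above the 0 h arrays, and in both lines the second repeat at 0 h was the lower one. The change was 4.68-fold in Nipponbare (log2 2.23, SE 0.32, adjusted p = 0.00562) and 3.19-fold in Pokkali (log2 1.67, SE 0.32, adjusted p = 0.0134). In Pokkali the call was lost without the second 0 h array (log2 1.30, adjusted p = 0.0533) and without the second 8 h array (log2 1.51, adjusted p = 0.0825).

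PRR59 was measured by 2 probes, whose mean was used. It gave 1.84 and 1.39 in Nipponbare at 0 h and 4.52 and 4.30 at 8 h, a rise of 2.75-fold (log2 1.46, SE 0.27, adjusted p = 0.0112). In Pokkali it gave 3.77 and 2.29 at 0 h and 5.81 and 5.50 at 8 h, a rise of 1.93-fold (log2 0.95, SE 0.27, adjusted p = 0.043). The times did not overlap within either line, but the 0 h arrays of Pokkali were spread more widely than any other pair of this gene. The Nipponbare call was lost without its second 0 h array or either of its 8 h arrays (adjusted p between 0.0575 and 0.0636), and the Pokkali call was lost in 5 of the 8 fits that left out 1 array, with a log2 change between 0.59 and 1.31. Those 5 left out the second 0 h array of Pokkali, either of its 8 h arrays or either 8 h array of Nipponbare. The Pokkali call was also lost with quantile normalization (adjusted p = 0.0565), without scaling (adjusted p = 0.105), without a filter on dim probes (adjusted p = 0.0558) and with only the Pokkali arrays fitted (adjusted p = 0.0896).

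PRR37 (LOC_Os07g49460), known in rice as a flowering repressor under long days, had changes of opposite sign in the lines, without overlap between the times in either. Its relative signal was 0.886 and 0.645 in Nipponbare at 0 h and 1.18 and 1.29 at 8 h. In Pokkali it was 2.00 and 1.89 at 0 h and 1.22 and 1.47 at 8 h. The lines came close to each other at 8 h from levels that were apart at 0 h. The rise in Nipponbare was 1.64-fold (log2 0.71, SE 0.20, adjusted p = 0.0457); the Pokkali value was a log2 change of -0.54 (SE 0.20, adjusted p = 0.0979), which did not pass. The Nipponbare call held in 1 of the 8 fits that left out an array, that without the first 0 h array of Nipponbare, and was lost in the other 7, with a log2 change between 0.48 and 0.94 over all 8 (adjusted p between 0.0312 and 0.201). It was also lost without scaling between arrays (adjusted p = 0.159), without a filter on dim probes (adjusted p = 0.0604) and with only the Nipponbare arrays fitted (adjusted p = 0.0927).

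PRR73 (LOC_Os03g17570), the close relative of PRR37, did not pass in either line. It stood at 4.15 and 3.25 in Nipponbare at 0 h and 4.70 and 5.37 at 8 h (log2 0.45, 95% interval -0.06 to 0.97, adjusted p = 0.168). In Pokkali it stood at 2.52 and 2.68 at 0 h and 2.76 and 3.75 at 8 h (log2 0.31, 95% interval -0.21 to 0.82, adjusted p = 0.324). The 8 h arrays were the higher ones in both lines, by less than the spread allowed a call.

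PCL1 (LOC_Os01g74020), the rice counterpart of the DNA-binding LUX subunit of the evening complex, moved most of the 8 loci in both lines. On the 0 h arrays its relative signal was 0.0471 and 0.00502 in Nipponbare and 0.0304 and 0.0155 in Pokkali, and in each line only the first of these 2 arrays was well above background. At 8 h it was 0.627 and 0.417 in Nipponbare and 3.65 and 3.18 in Pokkali. Every 8 h array was therefore far above every 0 h array, while the 0 h level itself was poorly measured. The log2 change was 5.05 in Nipponbare (SE 0.97, adjusted p = 0.0134) and 7.30 in Pokkali (SE 0.97, adjusted p = 0.00449). With the first 0 h array of each line alone, which measured the gene above background, it was 3.44 (adjusted p = 0.0112) and 6.81 (adjusted p = 0.0112). The Nipponbare call was lost without either 8 h array of Nipponbare (adjusted p = 0.0666 and 0.0629).

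ELF3 (LOC_Os06g05060), the scaffold of the evening complex and a flowering time gene of rice, showed overlapping times in both lines. It stood at 5.22 and 4.12 in Nipponbare at 0 h and 4.56 and 4.85 at 8 h, a log2 change of 0.02 with a 95% interval of -0.49 to 0.53 (adjusted p = 0.955). In Pokkali it stood at 5.30 and 3.79 at 0 h and at 4.04 on both 8 h arrays, a log2 change of -0.15 with an interval of -0.66 to 0.36 (adjusted p = 0.634). Of the evening complex genes among the 8 loci, PCL1 thus passed in both lines and ELF3 in neither. A second ELF3 gene, ELF3-2, is not among the 8 and rose in both lines, as given below.

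GI (LOC_Os01g08700) was dim, at 50.6 to 81.8 intensity units on its 2 probes, though well above background on every array. Its relative signal was 0.0771 and 0.0666 in Nipponbare at 0 h and 0.0951 and 0.105 at 8 h (log2 0.48, 95% interval 0.12 to 0.84, adjusted p = 0.0608). In Pokkali it was 0.0745 and 0.0701 at 0 h and 0.0763 and 0.0795 at 8 h (log2 0.11, 95% interval -0.26 to 0.47, adjusted p = 0.628). The times did not overlap in either line, and neither change passed. With normexp background correction the Nipponbare value was 0.37 and passed (adjusted p = 0.0473), and with only the probes well above background on all 8 arrays it was 0.48 and passed (adjusted p = 0.0484).

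**Figure D1:**
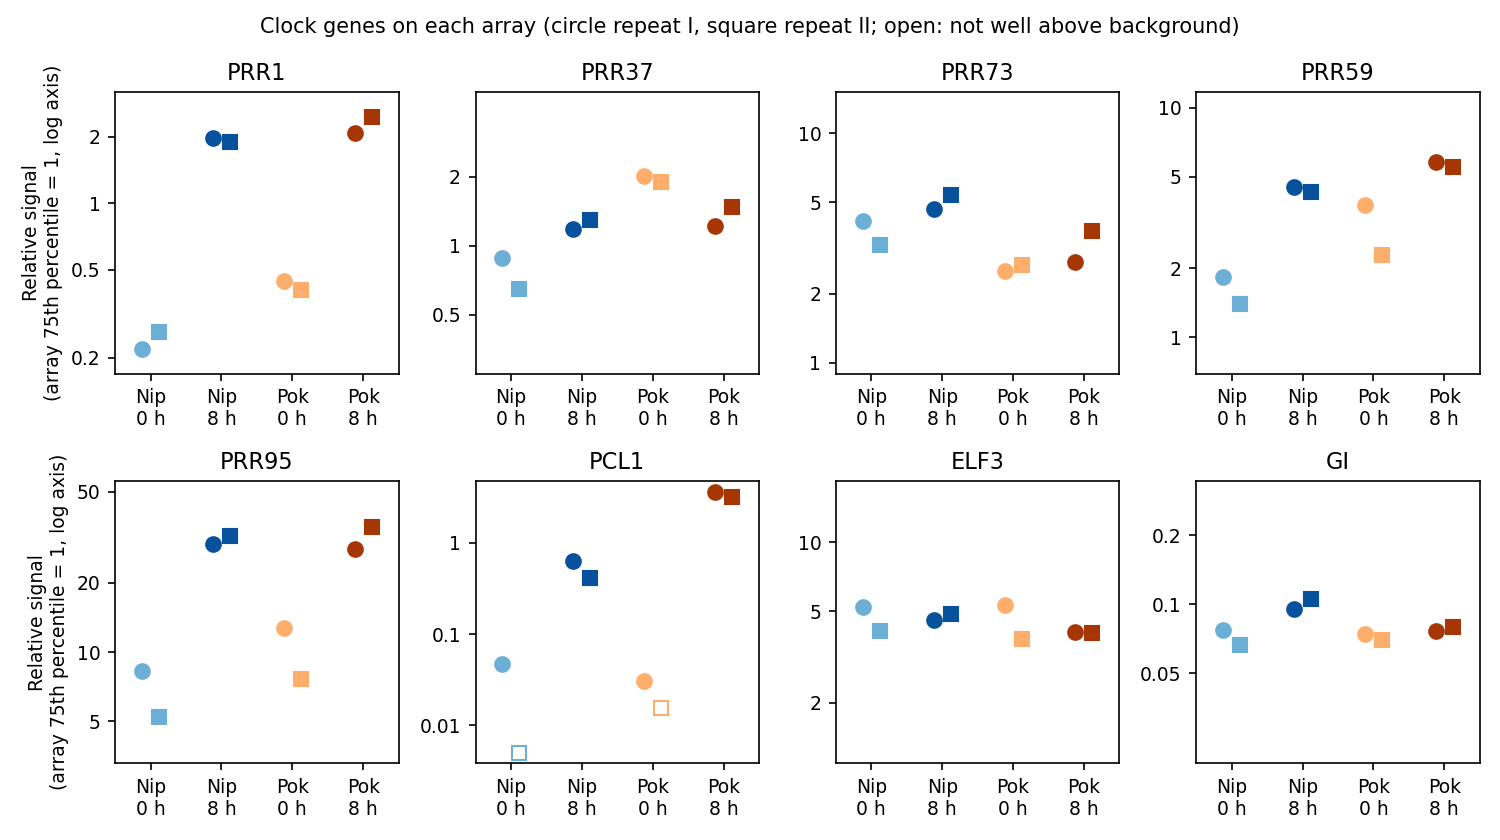
Relative signal (multiple of the array's 75th percentile, log axis) of the 8 clock genes on each of the 8 arrays, by line and time; circles are repeat I, squares repeat II, and open symbols were not well above background. PRR1, PRR59, PRR95 and PCL1 stand higher at 8 h in both lines, PRR37 stands higher at 8 h in Nipponbare and lower in Pokkali, and ELF3 overlaps.

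**Figure D2:**
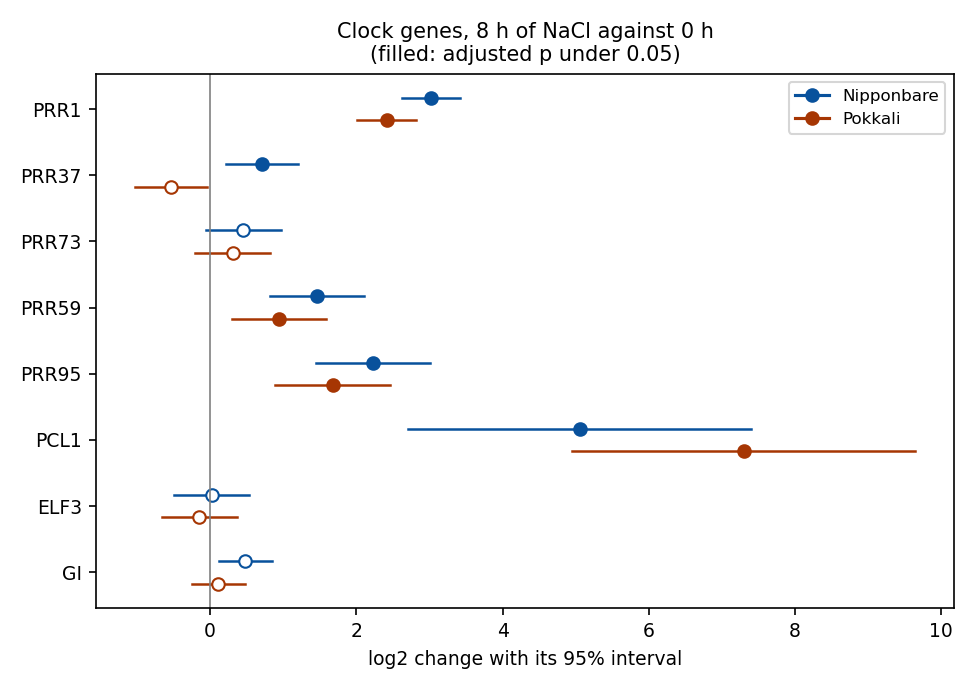
log2 change from 0 h to 8 h of each clock gene in Nipponbare and Pokkali, with the 95% interval of the limma model; filled points had an adjusted p under 0.05. The values run from -0.54 for PRR37 in Pokkali to 7.30 for PCL1 in Pokkali.

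The difference of the 8 h change between the lines was tested for each gene as an interaction. None of the 8 loci passed in limma. Over all loci, 0.203% passed with a higher change in Pokkali and 0.143% with a lower one. Before adjustment, 2 of the 8 had a limma p under 0.05 (PRR1 and PRR37), beside 4726 of all 45411 loci. The estimate was below 0 for 7 of the 8, with a median of -0.44 against 0.01 over all loci. For PRR37 it was -1.25 (SE 0.29, 95% interval -1.94 to -0.56), with an adjusted p of 0.181 in limma. For PRR1 it was -0.60 (SE 0.24, adjusted p = 0.443), with an interval of -1.17 to -0.03. For PCL1 the estimate was 2.24, with an interval of -1.07 to 5.55 that spans 0 (adjusted p = 0.694). The intervals of PRR59 (-1.42 to 0.39), PRR95 (-1.66 to 0.55) and ELF3 (-0.90 to 0.55) also span 0 and leave differences of over 1.5-fold possible.

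At 0 h, before salt, 2 of the 8 loci were higher in Pokkali than in Nipponbare and none was lower, where 6.72% of all loci were higher and 10.1% lower. PRR37 was 2.57-fold higher (log2 1.36, SE 0.20, adjusted p = 0.00579), with both Pokkali arrays above both Nipponbare arrays, and passed without any 1 of the 8 arrays (adjusted p at most 0.0302). PRR1 was 1.77-fold higher (log2 0.82, SE 0.17, adjusted p = 0.0196), also without overlap. That call was lost without the first 0 h array of Nipponbare or either 0 h array of Pokkali (adjusted p between 0.0558 and 0.0943). PRR59 had a log2 difference of 0.88 (adjusted p = 0.0756) and did not overlap between the lines, but did not pass. It passed without the second 0 h array of Pokkali (log2 1.24, adjusted p = 0.0243). For PCL1 the log2 difference of 0.49 (adjusted p = 0.792) rested on 1 array per line above background. Over the 8 fits without 1 array it ranged from -1.12 to 2.11. The highest value, with an adjusted p of 0.0421, left Nipponbare with only the array that was not well above background, so it is no measured difference.

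At 8 h none of the 8 loci passed between the lines in the limma fit. Over all loci, 10.5% passed as higher in Pokkali and 11.4% as lower. An unadjusted p under 0.05 was found for 2 of the 8 (PRR73 and PCL1), beside 16120 of all 45411 loci. Of the 4 leaf markers, 2 were also higher in Pokkali at 8 h, and their part in these differences was not tested. PCL1 was 6.66-fold higher in Pokkali, without overlap (log2 2.74, 95% interval 0.39 to 5.08, adjusted p = 0.0961). Its SE of 0.97 comes from a spread shared by all 4 groups, in which the 0 h arrays of Nipponbare differed by 3.23 and the 8 h arrays by 0.59. Fitted on the 8 h arrays alone, the same difference had an adjusted p of 0.00382. Over the 8 fits without 1 array the PCL1 difference ranged from 2.44 to 3.03, and it did not pass in 6 of them. PRR73 had a log2 difference of -0.64, lower in Pokkali without overlap (adjusted p = 0.0801). PRR37, which differed at 0 h, had a log2 difference of 0.12 at 8 h (95% interval -0.37 to 0.61, adjusted p = 0.724), and PRR95 one of 0.03 (95% interval -0.75 to 0.81). The headers name IRGSP5, an assembly of Nipponbare, as the genome behind the array design. A sequence difference under a probe and a difference in transcript level cannot be told apart between the lines.

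**Figure D3:**
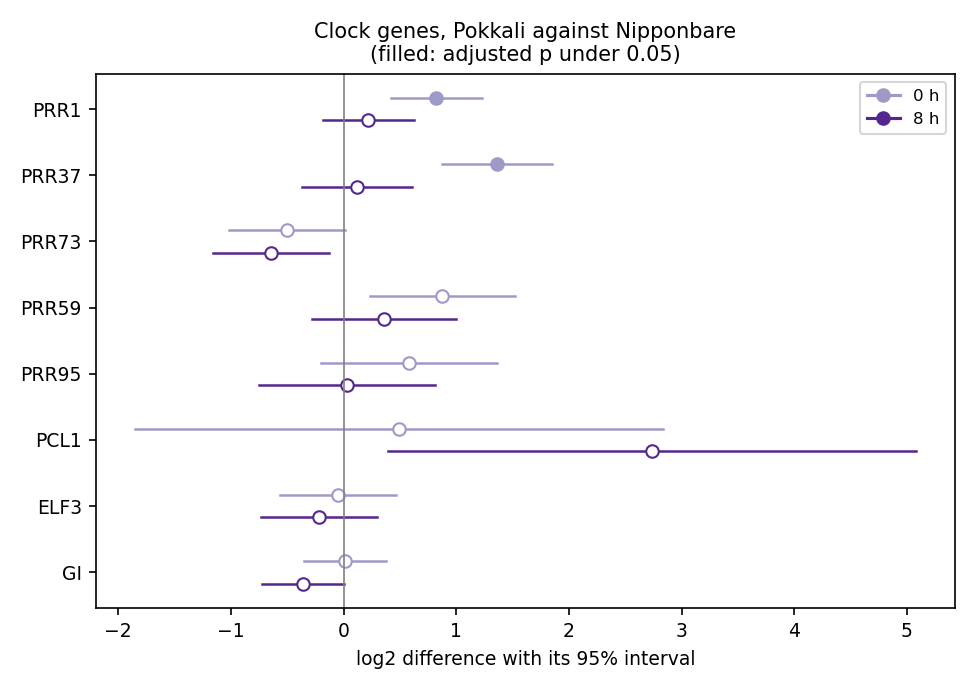
log2 difference of Pokkali against Nipponbare for each clock gene at 0 h and at 8 h, with the 95% interval of the limma model; filled points had an adjusted p under 0.05. PRR37 and PRR1 pass at 0 h, and PCL1 at 8 h has a difference of 2.74 with a wide interval.

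As marks of the hour, the clock genes were also compared between the repeats. At 0 h the second repeat was lower than the first in both lines for PRR95 (by a log2 difference of -0.68 in Nipponbare and -0.74 in Pokkali), PRR59 (-0.40 and -0.72), ELF3 (-0.34 and -0.49), PCL1 (-3.23 and -0.97), GI (-0.21 and -0.09) and PRR37 (-0.46 and -0.09). PRR1 and PRR73 pointed opposite ways in the lines. In a model with a term for the repeat at 0 h and another at 8 h, none of the 8 loci passed at 0 h. Over all loci, 2.72% passed as higher in the second repeat and 2.12% as lower. Of the 8 loci, 4 had an unadjusted p under 0.05 (PRR59, PRR95, PCL1 and ELF3), beside 12120 of all 45411 loci. PRR95 was nearest, at -0.71 (SE 0.12, adjusted p = 0.0562), followed by PRR59 at -0.56 (SE 0.13, adjusted p = 0.0914). The values for ELF3 (-0.41, adjusted p = 0.113) and PCL1 (-2.10, adjusted p = 0.119) were further from the threshold. In both lines the second 0 h array of PCL1 was not well above background, so its repeat differences at 0 h are poorly measured. With an intensity trend in the variance prior, PRR95 (adjusted p = 0.0121), PRR59 (adjusted p = 0.0319) and ELF3 (adjusted p = 0.0401) passed. At 8 h none of the 8 loci passed, and the limma model called 0% of all loci higher and 0% lower, with 5270 loci at an unadjusted p under 0.05. The estimates at 8 h were small, with 6 of the 8 above 0 and PRR95 at 0.21.

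The 0 h repeats differed more than the 8 h repeats over all loci too. The SD per array, taken from the repeat differences over loci, was 0.44 in Nipponbare and 0.45 in Pokkali at 0 h. At 8 h it was 0.31 and 0.32. The 8 h changes were therefore also taken against each 0 h repeat alone. Against the first 0 h repeat alone the log2 change of PRR95 was 1.89 in Nipponbare and 1.30 in Pokkali, and against the second alone 2.57 and 2.04, and all 4 passed (adjusted p between 0.00551 and 0.0234). PRR59 in Pokkali had 0.59 against the first (adjusted p = 0.0711) and 1.31 against the second (adjusted p = 0.0105). PRR1 moved little, from 3.15 to 2.89 in Nipponbare and from 2.35 to 2.48 in Pokkali.

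**Figure D4:**
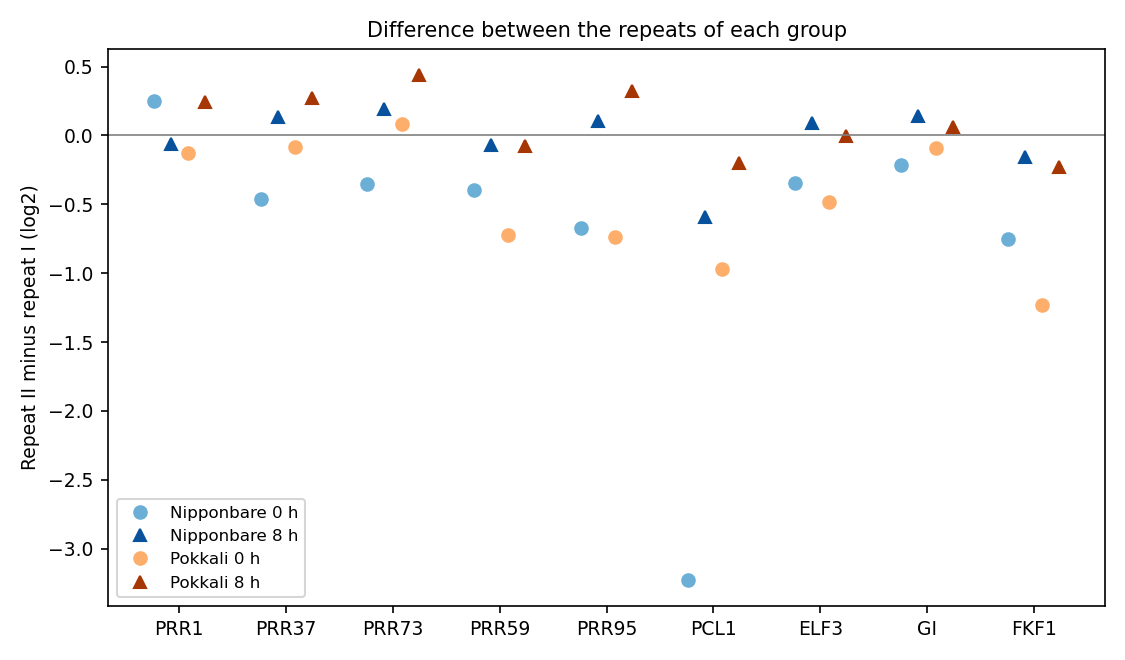
Repeat II minus repeat I (log2 difference of relative signal) within each of the 4 groups for the 8 clock genes and for FKF1; circles are 0 h and triangles 8 h. At 0 h PRR59, PRR95, PCL1, ELF3 and FKF1 lie below 0 in both lines. The PCL1 values of -3.23 in Nipponbare and -0.97 in Pokkali each rest on an array that was not well above background.

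Of 4 clock partners, 2 rose in each line and none fell, beside the 14% and 15.2% of all loci that rose in Nipponbare and Pokkali. FKF1, a blue-light receptor of the F-box type that binds GI in Arabidopsis, stood at 0.142 and 0.0844 in Nipponbare at 0 h and 7.15 and 6.42 at 8 h, and at 0.208 and 0.0887 in Pokkali at 0 h and 8.37 and 7.12 at 8 h. Its rise, 61.9-fold in Nipponbare (log2 5.95, SE 0.43, adjusted p = 0.00122) and 56.8-fold in Pokkali (log2 5.83, SE 0.43, adjusted p = 0.0015), was larger than that of PRR1, PRR95 or PRR59 in these fits. ELF3-2, a second ELF3 gene, stood at 2.01 and 1.89 in Nipponbare at 0 h and 4.39 and 4.98 at 8 h, and rose 2.40-fold there (adjusted p = 0.00291) and 2.19-fold in Pokkali (adjusted p = 0.00395). ZTL1 and ZTL2, of the family of FKF1, did not pass; ZTL1 had log2 changes of -0.36 and -0.22. None of the 4 partners passed between the lines at either time. The second 0 h repeat of FKF1 was lower than the first by a log2 difference of -0.75 in Nipponbare and -1.23 in Pokkali, and the repeat term of -0.99 did not pass (adjusted p = 0.0542).

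Of 6 photoreceptors, 1 rose and 1 fell in Nipponbare, and 1 rose and 2 fell in Pokkali. In Nipponbare these counts are near the shares over all loci (14% rose and 12.3% fell; 15.2% and 12% in Pokkali). PHYC, a phytochrome (red and far-red light receptor), rose 1.98-fold in Nipponbare (log2 0.98, adjusted p = 0.0266) and 1.90-fold in Pokkali (log2 0.93, adjusted p = 0.0312). CRY1a, a cryptochrome (blue-light receptor), fell by 1.08 on the log2 scale in Nipponbare (adjusted p = 0.00426) and by 0.88 in Pokkali (adjusted p = 0.0077). CRY1b fell by 0.58 in Pokkali (adjusted p = 0.0302) and had a log2 change of -0.44 in Nipponbare (adjusted p = 0.0682). PHYB did not pass, with log2 changes of 0.12 and 0.17. PHYA did not pass between the times and was higher in Pokkali than in Nipponbare by 0.68 at 0 h (adjusted p = 0.0395) and 0.64 at 8 h (adjusted p = 0.0398).

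Of 9 photoperiodic flowering genes, 8 were tested. EHD1 was above background on 1 array and did not pass the filter. In Nipponbare 2 rose (HD1 and MADS51) and 2 fell (HD3A and CO3); in Pokkali 3 rose (HD1, MADS51 and RID1) and 1 fell (GHD7). Over all loci 14% rose and 12.3% fell in Nipponbare, and 15.2% and 12% in Pokkali. HD1, the rice CONSTANS and an output of GI, was not well above background on any 0 h array and gave 0.123 and 0.119 in Nipponbare and 0.121 and 0.173 in Pokkali at 8 h. Its rise was at least 8.38-fold in Nipponbare (adjusted p = 0.00319) and at least 8.56-fold in Pokkali (adjusted p = 0.00227). Each bound is the 8 h mean over the lowest signal that counts as well above background on the 0 h arrays, or over the probe's own signal where that is higher. MADS51, which acts upstream of EHD1 in short days, rose by 1.46 and 1.37 on the log2 scale (adjusted p = 0.00455 and 0.00553). HD3A, a florigen, stood at 0.185 and 0.201 in Nipponbare at 0 h and 0.0270 and 0.0460 at 8 h and fell by 2.45 there (adjusted p = 0.00247). In Pokkali it was not well above background at either time. CO3, a CONSTANS-like gene, fell by 1.45 in Nipponbare (adjusted p = 0.0197) and had -0.83 in Pokkali (adjusted p = 0.0998). GHD7, a repressor of flowering under long days, fell by 0.60 in Pokkali (adjusted p = 0.0368) and had -0.53 in Nipponbare (adjusted p = 0.0544). RID1, a zinc finger activator of flowering, rose by 0.80 in Pokkali (adjusted p = 0.0336) and had 0.54 in Nipponbare (adjusted p = 0.102).

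Between the lines, 3 of the 8 flowering genes were lower in Pokkali at both times and none was higher, where 10.1% of all loci were lower at 0 h and 11.4% at 8 h. MADS51 was lower by 1.72 at 0 h and by 1.81 at 8 h on the log2 scale (adjusted p = 0.00208 and 0.00151). RID1 was lower by 1.22 and 0.97 (adjusted p = 0.00992 and 0.0203). HD3A was at least 11.4-fold lower at 0 h (adjusted p = 5.19e-05) and at least 2.13-fold lower at 8 h (adjusted p = 0.000419). Of the 2 photoperiod kinases, HD6, the alpha subunit of casein kinase 2, was 14.2-fold higher in Pokkali at 0 h and 9.84-fold at 8 h (adjusted p = 2.92e-05 and 5.19e-05) and rose by 0.72 in Nipponbare at 8 h (adjusted p = 0.0189), with 0.19 in Pokkali (adjusted p = 0.388). HD16, a casein kinase 1, was lower in Pokkali by 0.82 at 8 h (adjusted p = 0.0184) and had -0.60 at 0 h (adjusted p = 0.0623). None of these 20 genes passed the test of the difference in change between the lines.

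**Figure D5:**
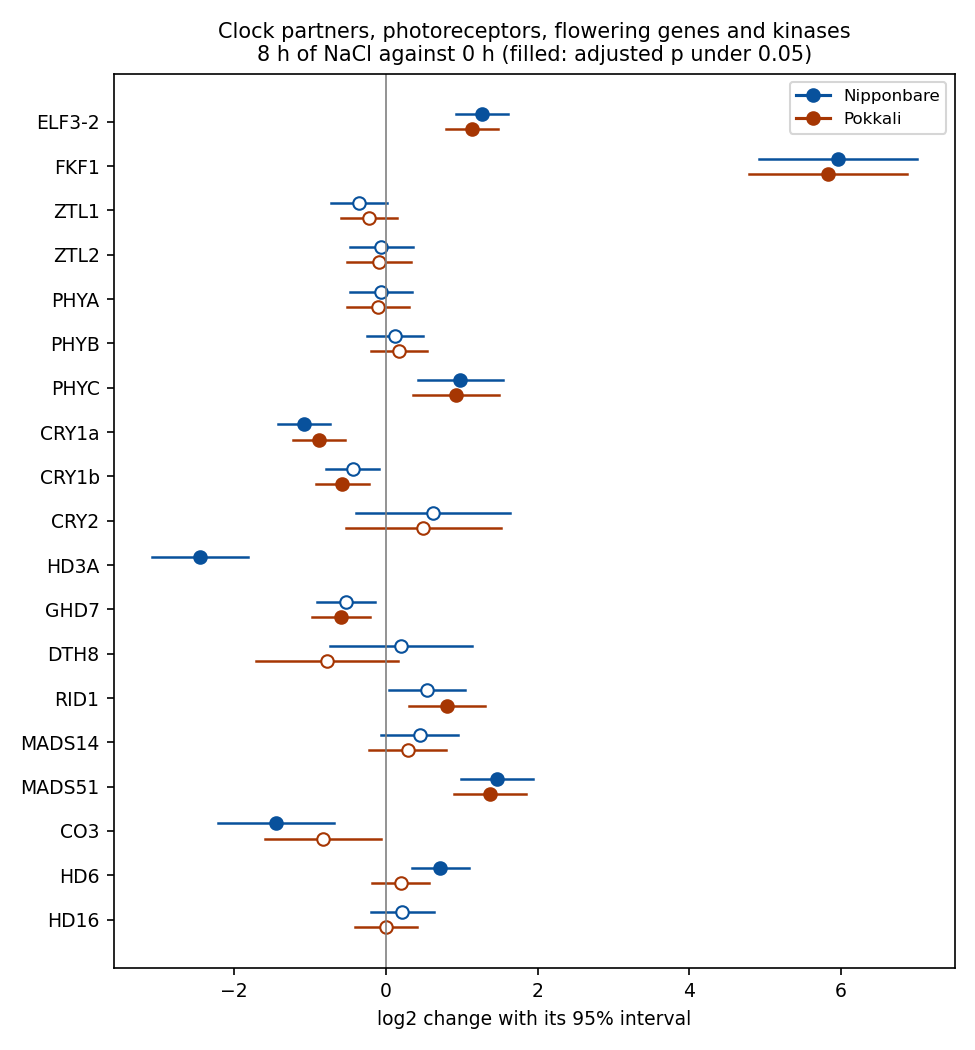
log2 change from 0 h to 8 h of clock partners, photoreceptors, flowering genes and photoperiod kinases in each line, with the 95% interval of the limma model; filled points had an adjusted p under 0.05. FKF1 stands near 6 in both lines; HD1 in both lines and HD3A in Pokkali are left out because a group was not well above background, and EHD1 was not tested.

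The loci whose pattern over the 8 arrays was most like that of GI were LOC_Os05g39790 and LOC_Os02g02570, with Pearson correlations of 0.986 and 0.985 among 38601 loci that were well above background on all arrays. The first had log2 changes of 2.46 in Nipponbare and 0.68 in Pokkali, the second had 0.79 and 0.19, and both were chosen for their likeness to GI over these same arrays. These are descriptions of 8 arrays that fall into 4 groups, and carry no test.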

How the data were processed

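RNA of whole rice seedlings was labelled with 1 dye and hybridised to a custom Agilent array. The deposited intensity is the processed signal of Feature Extraction 10.7.1.1, background-subtracted within each array and not scaled between arrays, per the file headers. Other deposited columns used here are per-spot flags of 0 or 1 (control, outlier, above background, saturated). The clock members and all gene lists were chosen with earlier results of these data known. Gene names rest on general knowledge of the locus identifiers, which matched no entry of the reference table; 8 of the 9 symbols were found there, all 8 on the chromosome the identifier gives. Probe and promoter sequences were not used here.

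Each array's 1319 control spots were dropped, as was any outlier-flagged spot. From the log2 intensity of each array its own 75th percentile was subtracted. A probe entered if some group had it well above background on both of its arrays, which held for 47559 of 55078, and probes of a locus were averaged. limma 3.58.1 (R 4.3.3) fitted 1 model of the 4 groups by lmFit and eBayes, with 4 residual and 2.36 prior degrees of freedom and Benjamini-Hochberg adjustment over 45411 loci. A second model added a repeat term within each time (2 residual degrees of freedom). The steps were tested on simulated data. The number of arrays limits the precision: 2 against 2 allows no exact two-sided permutation p below 0.333, so no single-gene test was made outside limma. Nothing says that the repeats came from separate cultures beyond their labels, so p-values measure the spread between these samples. The title and the description of one 8 h Nipponbare sample disagree on its repeat number, and its title was followed.

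The genes named were all members, and of each other list those that passed and 1 or 2 that did not (1 gene of the flowering list is not reported here and is left out of its counts); the 2 loci most like GI were taken by correlation, and for LHY that rule could not be applied. Alternatives changed the background correction, scaling, dim-probe filter, locus summary, arrays fitted, replicate block and variance prior, and left out arrays. The scanner tables analysed hold no mean signal, so normexp used the median signal (offset 50).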

Additional observations from a re-analysis of the deposited data

Results flagged for a closer look

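PRR37 was picked out because its change from 0 h to 8 h pointed in opposite directions in the lines on every array: both 8 h arrays of Nipponbare were above both of its 0 h arrays, and both 8 h arrays of Pokkali were below both of its 0 h arrays. The test of the difference itself gave -1.25 on the log2 scale and did not pass (adjusted p = 0.181, limma). Over the 19 alternatives that gave a value it ranged from -1.48 to -1.02, with an adjusted p between 0.106 and 0.44. The cause was not tested.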

How the results depend on the processing

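Of 1025 values of single clock genes under the alternatives, 963 kept their side of the threshold, 37 lost the threshold and 25 reached it. No value that passed changed sign, while 43 values turned sign for genes that did not pass in that comparison, 7 of them for ELF3 in Nipponbare at 8 h against 0 h. PRR1 and PRR95 in Nipponbare and PRR1 in Pokkali passed at 8 h against 0 h under every alternative run. PCL1 in Pokkali passed under the 19 alternatives that gave it a value. With only probes well above background on all 8 arrays PCL1 was dropped, so that setting gave none. The count of clock loci called in Nipponbare went from 5 to between 2 and 5 without 1 array, and in Pokkali from 4 to between 2 and 4. The difference in change stayed at 0 of 8. For Pokkali against Nipponbare at 0 h the count of 2 became 1 without scaling and with only the arrays compared, by the loss of PRR1. It became 3 with normexp, by PRR59 (adjusted p = 0.0465). Over 20 alternatives PRR1 lost its call in 7 and PRR59 reached the threshold in 5, so an unchanged count can hide a change of gene. The call of PRR37 was lost in 0 of 20. At 8 h the count of 0 became 1 with normexp and with only the arrays compared, by PCL1 in both settings. Without scaling it became 1 by PRR73 (log2 difference -0.80, adjusted p = 0.0485). Among the alternatives that gave a value, PCL1 reached the threshold in 7 of 19 and PRR73 in 1 of 20. For the 0 h repeats the count of 0 became 2 with normexp, 1 without scaling, 1 with probes above background on all arrays and 3 with an intensity trend, and stayed at 0 without 1 array, as it did for the 8 h repeats.

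The repeat numbers do not pair the samples by the rule used (correlation of repeat differences over 0.1 in every pair of groups): 4 groups gave correlations of 0.0613 to 0.535 over loci, all above 0, with 0.535 between the lines at 0 h. With a replicate block over all arrays, PRR37 in Nipponbare had an adjusted p of 0.0552 and PRR59 between the lines at 0 h one of 0.0416, which made that count 3. With a replicate block within the 0 h arrays only, 4 loci passed between the lines at 0 h, PRR59 (adjusted p = 0.00936) and PRR95 (adjusted p = 0.047) beside PRR1 and PRR37, and 1 at 8 h; PRR37 in Nipponbare did not pass (adjusted p = 0.0722), and the change of PRR37 in Pokkali was -0.67 and passed (adjusted p = 0.0457).

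Over all loci, the 157 calls of the difference in change became 30 with the replicate block, 49 and 52 with the other filters, 60 and 1 without repeat I or II at 0 h, and 0 to 179 without 1 array. The 2197 of the 0 h repeats became 6146 with normexp, 5076 with probes above background on all arrays, 5969 with an intensity trend, and 0 without a filter or without any 1 array; the 0 of the 8 h repeats became 16 and 11 with normexp and the trend. Without 1 array, the 11964 calls of Nipponbare ranged from 4034 to 12255, the 12331 of Pokkali from 4763 to 12020 and the 9973 between lines at 8 h from 5026 to 9983. The 7632 between lines at 0 h became 4155 with only the arrays compared and 4929 without repeat II at 0 h. Fewer arrays leave fewer degrees of freedom; otherwise the cause was not tested. Signal over background limits PCL1 at 0 h, HD1 at 0 h, HD3A in Pokkali and GI.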
